A study of Homo sapiens with 27 samples.

Results

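Intronless protein-coding genes, whose exons form a single block on the genome, were examined in prostate cancer cells with a stable knockdown of CPSF1. The exon coordinates listed for each gene were merged where they overlapped, and genes with exactly 1 merged interval and a mean count of at least 10 in the 3 control libraries of at least 1 cell line were kept, leaving out symbols that begin with HIST or MT-. These were 319 of the 20268 genes in the count table. Among the other genes with 1 merged interval, 1084 whose symbols begin otherwise were below the minimum, and 19 histone and 13 mitochondrial symbols that reached it were left out. The members were thus selected on their counts in the CTRL sh libraries, which are described without a test. AC103801.2 in LNCaP and FAM27E2 in 22Rv1 lay just inside the minimum with a mean count of 10, and CD248 in 22Rv1 and RPEL1 in LNCaP lay just outside it with 9.67.

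RNA-seq was performed on 27 libraries from 3 human prostate cancer cell lines, LNCaP, LNCaP95 and 22Rv1, with 3 biological replicates in each of 9 groups. All cells were infected with pGIPZ lentivirus, selected with puromycin (at a lower dose for LNCaP95) and expanded, then plated at 500000 cells a well for 72 h. The virus carried a non-silencing hairpin (CTRL sh) or a hairpin targeting CPSF1, of which there were 2 (CPSF1 sh1, CPSF1 sh2), so that each line gave 3 CTRL sh and 6 CPSF1 sh libraries. LNCaP and 22Rv1 were grown in RPMI medium with serum and LNCaP95 in that medium free of phenol red. The cells were stable populations with a partial knockdown, and no library without virus was compared here. RNA was selected for poly(A) tails by the library kit, and a level is given as CPM, counts scaled to the normalized library size.

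CPSF1 is the largest subunit of the cleavage and polyadenylation specificity factor, which recognises the poly(A) signal near the end of a nascent transcript and directs its cleavage and tailing. Most human genes are spliced, and splicing of the last intron is coupled to recognition of the poly(A) site in the last exon. An intronless gene has no splice site and no exon junction complex, so its transcript relies on other elements for processing and export, such as sequences within the transcript and the 3′ end signals. Many such genes encode regulators that are switched on and off rapidly, among them transcription factors of the JUN, SOX and FOX families, the inducible HSP70 chaperones and several G protein-coupled receptors.

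The poly(A) signal of the members on which the results turn is shown first, because it is the element that CPSF reads. Each line gives 30 bases of the GRCh37 genome, 5′ to 3′ on the strand of the gene, with the hexamer AATAAA or its common variant ATTAAA in capitals. The hexamer was the last match within the final 50 bases of the annotated gene on that strand.
FOXD4, chr9:116238-116267, minus strand: ttatatagacgaAATAAAatgctaagtcac
FOXD4L1, chr2:114258696-114258725, plus strand: ttatatagacgaAATAAAatgctaagtcac
TMEM81, chr1:205052259-205052288, minus strand: acattttttttcAATAAAagtaattcacag
B3GALT6, chr1:1170387-1170416, plus strand: tcagcctaagacATTAAAtttcatatcaga
RAP2B, chr3:152886233-152886262, plus strand: tgcctcaagaatAATAAAtatttttggtta
PURB, chr7:44915903-44915932, minus strand: atgtttgtaacaAATAAAgtatgcagaaaa
CLDN3, chr7:73183331-73183360, minus strand: ttgatatttttcAATAAAagcctttcgttt
FAM127A, chrX:134167536-134167565, plus strand: ttccttattttcAATAAAtgtcagacatta
ZBED6CL, chr7:150029776-150029805, plus strand: ttgcacctgttaAATAAAgttttgtaaaca
SOX4, chr6:21598810-21598839, plus strand: ttttgagaaggaAATAAAatcagctggaac
HSPA1A, chr6:31785689-31785718, plus strand: tacttcaaagtaAATAAActttaaaattca
HSPA1B, chr6:31798002-31798031, plus strand: ttaaatatgaaaAATAAAatgttaaacttt
The first 6 genes were higher with CPSF1 sh wherever they were tested, and CLDN3, FAM127A and ZBED6CL were lower in all 3 lines. FOXD4 and FOXD4L1, near-identical copies on chromosomes 9 and 2, had the same 30 bases. JUND, which fell in all lines, had neither hexamer in this window, and nor did AC005003.1, AL590822.2, C5orf55, C9orf172, LENG9 and NDN, which rose in all lines. Among the 319 members AATAAA was found in 168 (52.7%), ATTAAA without AATAAA in 44 (13.8%) and neither in 107 (33.5%), and the hexamer began a median of 23 bases before the annotated end. In the same window of 13494 multi-exon genes, AATAAA was found in 60.9%, ATTAAA in 14.2% and neither in 24.9%. A match describes the letters of this window and not the use of a site.

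Between 8515624 and 15904518 counts fell on genes in each library, and the members took 0.812 to 1.05% of them. CPSF1 itself was lower in all 6 CPSF1 sh libraries than in all 3 CTRL sh libraries of each line, changing from 151 ± 1.04 to 96.2 ± 7.95 CPM in LNCaP, from 114 ± 15.5 to 61.4 ± 4.13 CPM in LNCaP95 and from 184 ± 3.77 to 130.4 ± 10.9 CPM in 22Rv1 (SD, n = 3 and 6), with adjusted p-values of 1.7e-07, 1.3e-06 and 9.7e-05. All 9 luminal prostate markers examined, including KLK3, were detected in every line. Of the markers of other cell types, PTPRC and CD3E of blood summed to at most 0.372 CPM, KRT5, KRT14 and TP63 of basal cells to at most 6.29 CPM, and COL1A1, COL1A2 and PDGFRB of stroma to 10.9 to 74.9 CPM, with COL1A2 at 0 in all CTRL sh libraries. The endothelial marker VWF was at 22.3 to 28.0 CPM in CTRL sh and 9.30 to 12.7 CPM in CPSF1 sh libraries of LNCaP and at or under 4.36 CPM in the other lines. The summed luminal level was 5542 to 5645 CPM in CTRL sh and 4402 to 4710 CPM in CPSF1 sh libraries of LNCaP, 6552 to 6761 and 4615 to 4864 CPM in LNCaP95, and 3060 to 3085 and 2909 to 3213 CPM in 22Rv1. Whether the share of cells or the RNA per cell changed cannot be told apart in such bulk samples.

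Some libraries stood apart from their replicates. The chi-square of counts per degree of freedom was 1.38 to 3.11 in 24 of 27 replicate pairs, 5.61 between CTRL sh replicates 1 and 2 of LNCaP95, and 8.0 and 4.95 between CPSF1 sh1 replicate 3 of 22Rv1 and its replicates 1 and 2. Of 94 genes with a mean count of at least 100 in 22Rv1 CTRL sh and 0 counts in LNCaP CTRL sh, all 94 had counts in LNCaP CPSF1 sh1 replicate 3, where they summed to 173 CPM (scaled by total counts alone) or 6.37% of their level in 22Rv1. In the other LNCaP CPSF1 sh libraries 23 to 38 of them had counts, with 3.99 to 6.71 CPM in all. The intronless gene SFN, named after its values were seen, was at 19.6 CPM in that library and at 2.40 and 2.16 CPM in replicates 1 and 2. Without it 56 members were higher and 60 were lower in LNCaP, beside 58 and 61 with it, and no named call was lost. Without CPSF1 sh1 replicate 3 of 22Rv1 43 members were higher and 35 were lower there, beside 37 and 24 with it, and without CTRL sh replicate 1 or 2 of LNCaP95 51 or 57 were higher and 55 or 57 were lower, beside 55 and 62.

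The members differed from multi-exon genes in features that the rule did not use. Among the genes tested in LNCaP, the exon length had a median of 2512.5 bases for members and 4306 bases for multi-exon genes, and the GC content a median of 53.8 and 48.7%. The members were also expressed at lower levels, with a median CTRL sh level of 23.1 CPM against 49.9 CPM in LNCaP, 23.9 against 51.6 CPM in LNCaP95 and 19.4 against 47.7 CPM in 22Rv1. These CPM values are not divided by gene length, so levels of genes of different length are not directly comparable. By the listed coordinates, 255 members had a single interval, 5 had several ends of the same interval, and 59 had shorter separate intervals inside a longer one. In the GENCODE v44lift37 annotation, 250 members were matched by symbol and 48 of these had a spliced protein-coding transcript, among them 27 of the 49 matched genes with separate shorter intervals and 21 of the 196 with a single interval. JUND, HSPA1A, PSPN, TAF7, NAP1L3 and POU3F3, whose changes are given below, were among these 48. An expressed gene on the same strand ended within 10 kb upstream of 66 members, and 17 members lay inside such a gene.

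The first question was whether intronless genes as a group rose or fell after CPSF1 knockdown. A gene entered the test of a line if it exceeded 2 CPM in each of its 9 libraries. Changes were tested with edgeR's quasi-likelihood test and Benjamini-Hochberg adjustment over all genes, at a threshold of 0.05. The test was run for 196 members in LNCaP, 191 in LNCaP95 and 219 in 22Rv1, of which 167 were tested in all lines and 249 in at least 1. In LNCaP 58 members were higher and 61 were lower, 60.7% of those tested, where 62.1% of all genes tested were called, 31.1% higher and 31% lower. In LNCaP95 55 members were higher and 62 were lower, 61.3% in either direction, against 66.9% of all genes, 33.2% higher and 33.7% lower. In 22Rv1 37 members were higher and 24 were lower, 27.9% in either direction, against 26.9% of all genes, 12.7% higher and 14.3% lower. The 22Rv1 counts were 22 higher without CTRL sh replicate 3 and 15 lower without CTRL sh replicate 1. Library size alone as the scaling moved the median of all genes in LNCaP95 by 0.087 (log2). The LNCaP95 counts were then 70 higher and 50 lower, so that 58.3% of the calls were higher in place of 47.0%. Over all genes of LNCaP95 62.2% of the calls were then higher in place of 49.6%. The share of members called was thus close to that of all genes in each line. The direction of the LNCaP95 majority depended on the scaling, among members and among all genes.

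Across all tested members the middle of the distribution of changes lay close to that of multi-exon genes, while its outer parts differed. At or below a log2 fold change of 0.2 lay 71.9, 67.5 and 76.3% of members in LNCaP, LNCaP95 and 22Rv1. The shares of multi-exon genes were 74.4, 68.8 and 86.4%. At or below 0.4 lay 83.7, 80.6 and 90.4% of members against 89.7, 82.3 and 95.5% of multi-exon genes. On the other side, 32.1, 32.5 and 15.5% of members lay at or below -0.2, against 27.4, 30.9 and 16.4% of multi-exon genes. At or below -0.5 the shares were 8.67, 15.7 and 4.57% of members against 10.0, 11.6 and 3.15% of multi-exon genes. The median log2 fold change was -0.0017 for members and -0.00082 for multi-exon genes in LNCaP. It was -0.013 for members and 0.0020 for multi-exon genes in LNCaP95, and -0.0085 for members and -0.0024 for multi-exon genes in 22Rv1. The middle 50% of the members ran from -0.26 to 0.24 in LNCaP, from -0.29 to 0.28 in LNCaP95 and from -0.13 to 0.18 in 22Rv1, against -0.23 to 0.21, -0.27 to 0.28 and -0.13 to 0.11 in multi-exon genes. Over 2-fold changes that passed the test were found in few members, as in all genes. In LNCaP 6 were higher and 4 were lower (3.06 and 2.04% of members), where 1.55 and 2.06% of all genes qualified. In LNCaP95 8 were higher and 6 were lower (4.19 and 3.14%), against 2.99 and 2.39% of all genes. In 22Rv1 2 were higher and 0 were lower (0.913 and 0%), against 0.52 and 0.273%. The shares of members rest on these small counts.

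**Figure D1:**
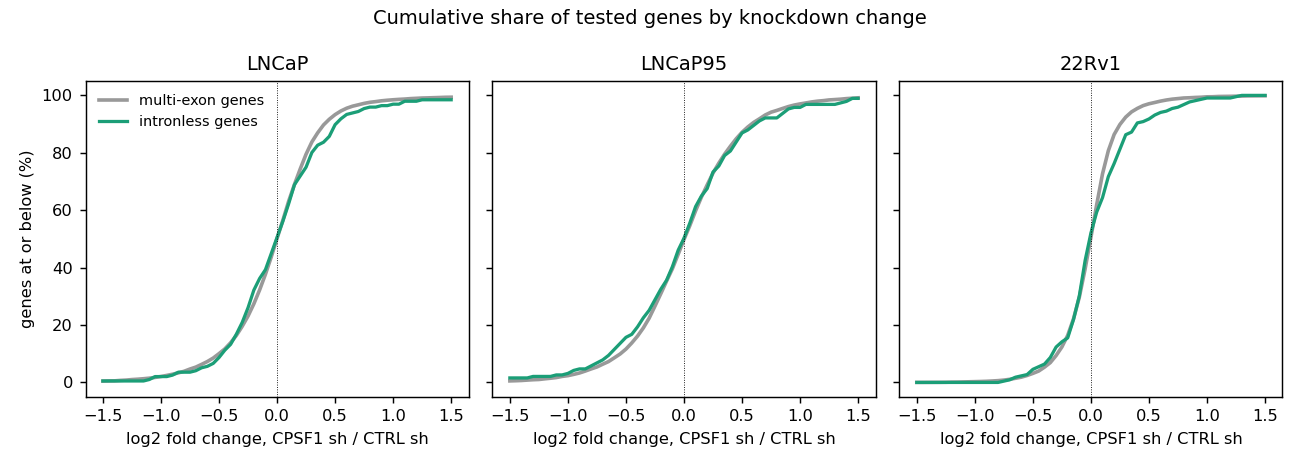
Cumulative share of tested genes (y axis, percent) at or below each log2 fold change of CPSF1 sh against CTRL sh (x axis) in LNCaP, LNCaP95 and 22Rv1, with intronless genes in green and multi-exon genes in grey. The green and grey curves cross 0 at nearly the same height in each line, with 50.5, 50.3 and 52.1% of the intronless genes below 0 against 50.2, 49.8 and 50.6% of the multi-exon genes. Above 0 the curves part in 22Rv1, with 76.3% of the intronless and 86.4% of the multi-exon genes at or below 0.2.

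To take the lower level of intronless genes into account, each member was set against multi-exon genes in the same 1 of 10 bins of CTRL sh level. On the log2 scale the median difference was close to 0 in LNCaP (-0.0038) and 22Rv1 (-0.0017) and -0.077 in LNCaP95. In LNCaP95 111 of 191 members lay below the multi-exon genes of their level bin. For single libraries, the change of each gene was taken from the mean of the CTRL sh libraries of the line. The CTRL sh values therefore lie near 0 by construction, and only their spread is informative. In LNCaP95 this difference was 0.0034 ± 0.011 in CTRL sh, -0.077 ± 0.014 with CPSF1 sh1 and -0.086 ± 0.036 with CPSF1 sh2 (SD, n = 3 each). The 6 CPSF1 sh libraries lay from -0.108 to -0.0445, all below the CTRL sh libraries at -0.0092 to 0.013. Matching on both exon length and level in 5 bins each gave -0.0082 in LNCaP95, and no matching gave -0.015. In 22Rv1 the matched difference was 0.030 ± 0.0080 with CPSF1 sh1 and -0.027 ± 0.0081 with CPSF1 sh2 (SD, n = 3 each), on opposite sides of the CTRL sh mean of 0.0036 ± 0.025, and both hairpins overlapped the range of the CTRL sh libraries.

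**Figure D2:**
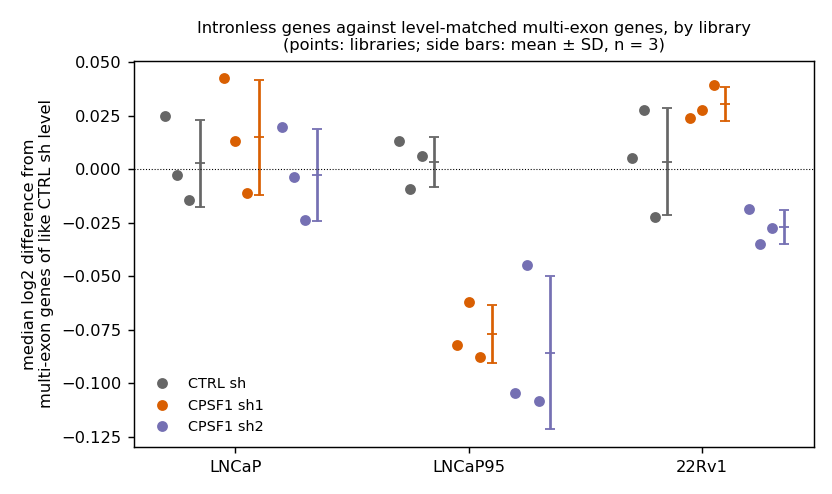
Median difference between intronless genes and multi-exon genes of like CTRL sh level in their log2 change from the CTRL sh mean of the line (y axis). Each of the 27 libraries is shown by cell line (x axis) and hairpin (colour), with the mean and SD of each group beside its 3 points. The CTRL sh libraries lie near 0 by construction. The 6 CPSF1 sh libraries of LNCaP95 lie below its 3 CTRL sh libraries, and in LNCaP all groups lie near 0.

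Each hairpin was also compared with the same CTRL sh libraries, so that these comparisons are not independent of each other. In LNCaP 59 members were higher and 59 were lower with CPSF1 sh1 (62.6% of all genes called), and 58 were higher and 61 were lower with CPSF1 sh2 (64.6% of all genes). In LNCaP95 57 were higher and 60 were lower with CPSF1 sh1 (66.4% of all genes, 33.1% higher), and 65 were higher and 68 were lower with CPSF1 sh2 (73.4% of all genes). In 22Rv1 CPSF1 sh1 gave 34 higher and 17 lower members, or 15.5 and 7.76%, where 8.79 and 11.1% of all genes were called and 19.9% in either direction. CPSF1 sh2 gave 43 higher and 42 lower in 22Rv1, or 19.6 and 19.2%, against 19.1 and 20.9% of all genes and 40% in either direction. The 22Rv1 counts for CPSF1 sh1 rested on few libraries. Without CTRL sh replicate 3 the number higher was 17, without CTRL sh replicate 1 it was 21 and without CPSF1 sh1 replicate 2 it was 22, while the number lower was 9 without CTRL sh replicate 1 or 2. CPSF1 sh1 and CPSF1 sh2 differed from each other at 18 of 196 members in LNCaP, 14 higher and 4 lower with CPSF1 sh1 (14.8% of all genes, 8.24% higher and 6.53% lower). They differed at 58 of 191 in LNCaP95, 34 higher and 24 lower with CPSF1 sh1 (34.1% of all genes, 17.7% higher and 16.5% lower), and at 19 of 219 in 22Rv1, 15 higher and 4 lower (11.3% of all genes, 5.85% higher and 5.47% lower).

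Members with a low control level were called higher more often than lower, and so were multi-exon genes. Of 25 members under 5 CPM in LNCaP CTRL sh, 14 were higher and 2 were lower (56.0 and 8.0%), beside 40.0 and 8.60% of multi-exon genes at that level. In LNCaP95 9 of 23 were higher and 1 was lower (39.1 and 4.35%), beside 54.4 and 4.83% of multi-exon genes. In 22Rv1 9 of 32 were higher and 1 was lower (28.1 and 3.12%), beside 22.5 and 1.90% of multi-exon genes. Under 5 CPM the median log2 fold change was 0.55, 0.26 and 0.21 for members in LNCaP, LNCaP95 and 22Rv1, and 0.28, 0.45 and 0.15 for multi-exon genes. The filter asks for more than 2 CPM in every library, which limits how far a gene with a low control level could fall and still be tested. Above 100 CPM in LNCaP95, 4 of 23 members were higher and 11 were lower, shares of 17.4 and 47.8% beside 23.4 and 47.7% of multi-exon genes.

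In LNCaP95 the calls also differed in number between members with AATAAA and members with neither hexamer near the annotated end. Of 110 members with AATAAA 26 were higher and 43 were lower, with a median log2 fold change of -0.060. Of 53 members with neither hexamer 21 were higher and 10 were lower, with a median of 0.13. Multi-exon genes of LNCaP95 had medians of 0.0058 with AATAAA and 0.0026 with neither, with 34.0% higher and 34.1% lower in the first and 33.3% in each direction in the second. In LNCaP 31 of 115 members with AATAAA were higher and 38 were lower, and 17 of 54 members with neither were higher and 17 were lower, where 31.0 and 31.4% of multi-exon genes with AATAAA and 30.4 and 30.9% of those with neither were. In 22Rv1 18 of 124 with AATAAA were higher and 14 were lower, and 9 of 61 with neither were higher and 6 were lower, beside 12.9 and 14.5% of multi-exon genes with AATAAA and 12.1 and 14.0% of those with neither. Of 28 members with ATTAAA and not AATAAA in LNCaP95, 8 were higher and 9 were lower, with a median of 0.0036. In LNCaP 10 of 27 such members were higher and 6 were lower, and in 22Rv1 10 of 34 and 4. Multi-exon genes with ATTAAA were higher in 32.4, 30.4 and 11.8% and lower in 29.8, 32.7 and 14.3% in LNCaP, LNCaP95 and 22Rv1. No test of these splits was made.

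Members that begin within 10 kb after the end of another expressed gene on the same strand were called higher more often than lower. In LNCaP 14 of 34 such members were higher and 9 were lower (41.2 and 26.5%), beside 44 higher and 52 lower of the other 162 members (27.2 and 32.1%). In LNCaP95 the counts were 13 higher and 8 lower of 36 (36.1 and 22.2%), beside 42 and 54 of 155 (27.1 and 34.8%). In 22Rv1 they were 12 higher and 3 lower of 45 (26.7 and 6.67%), beside 25 and 21 of 174 (14.4 and 12.1%). Multi-exon genes with such a neighbour were higher in 32.2% and lower in 31.0% of cases in LNCaP, while in LNCaP95 the shares were 30.9 and 36.0% and in 22Rv1 13.6 and 11.9%. The median log2 fold change of the members with a neighbour was 0.16 in LNCaP and 0.13 in LNCaP95 but -0.046 in 22Rv1, so that in 22Rv1 the median and the counts differ in sign. These members had lower levels than the others, with a median of 15.9 against 24.8 CPM in LNCaP, 13.0 against 25 CPM in LNCaP95 and 8.48 against 24.8 CPM in 22Rv1, and the part of level in the result was not tested.

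**Figure D3:**
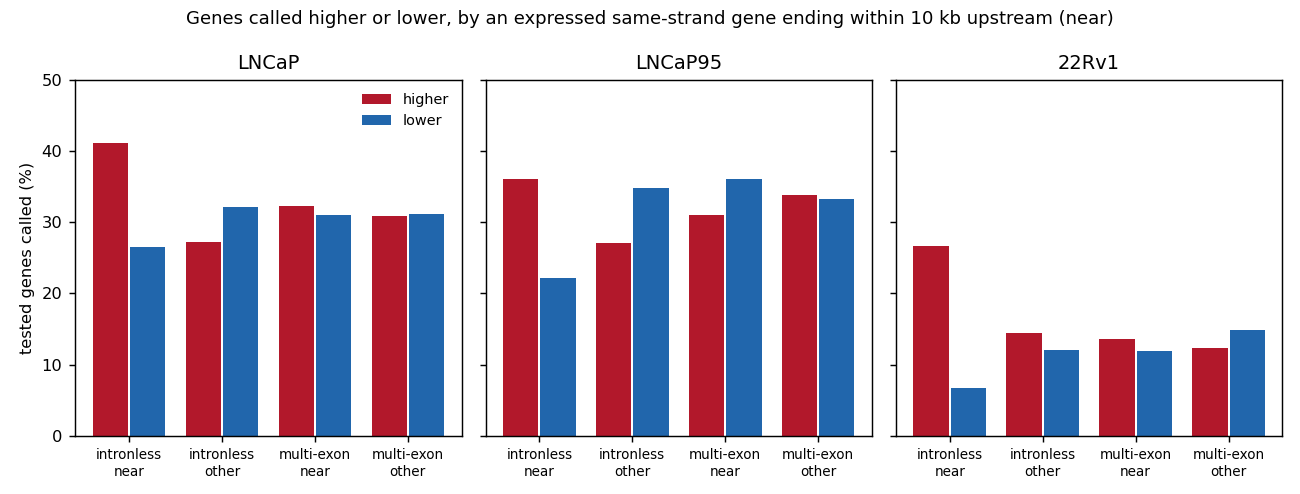
Percent of tested genes called higher (red bars) or lower (blue bars) with CPSF1 sh (y axis) in each line, for intronless and multi-exon genes with an expressed same-strand gene ending within 10 kb upstream (near) and for the others. For intronless genes the red bar exceeds the blue bar in the near class of each line (41.2 and 26.5% in LNCaP), and in multi-exon genes the bars differ by less.

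The AP-1 transcription factors, dimers of JUN and FOS family proteins that drive immediate early transcription, held the largest fall among the members called lower in all lines. JUND (chr19:18390563-18392432, minus strand, GRCh37) encodes the JUN family member that is expressed most steadily in resting cells. Its level in LNCaP was 170.3, 170.2 and 171 CPM in the CTRL sh libraries, 89.9, 79.2 and 77.1 CPM with CPSF1 sh1 and 84.8, 82.6 and 68.2 CPM with CPSF1 sh2. In LNCaP95 it was 496, 425 and 561 CPM in the CTRL sh libraries, 114, 145 and 89.7 CPM with CPSF1 sh1 and 70.2, 87 and 66.3 CPM with CPSF1 sh2. In 22Rv1 it was 105, 108 and 92.5 CPM in the CTRL sh libraries, 60.9, 69.9 and 73.1 CPM with CPSF1 sh1 and 62.6, 71.1 and 54.5 CPM with CPSF1 sh2. The CPSF1 sh libraries of each line were all below the CTRL sh libraries. JUND fell from 171 ± 0.725 to 80.3 ± 7.4 CPM in LNCaP (log2 fold change -1.09 ± 0.060, adjusted p = 1.8e-09), from 494 ± 68.2 to 95.4 ± 29.6 CPM in LNCaP95 (log2 fold change -2.36 ± 0.19, adjusted p = 6.0e-07) and from 102 ± 8.4 to 65.3 ± 7.18 CPM in 22Rv1 (log2 fold change -0.65 ± 0.082, adjusted p = 1.1e-04), where here and below a level is a mean ± SD with n = 3 CTRL sh and n = 6 CPSF1 sh libraries, and a log2 fold change is given ± SE. The fall was larger in LNCaP95 than in LNCaP by -1.25 ± 0.20 (SE), adjusted p = 8.1e-06, and in LNCaP95 it was larger with CPSF1 sh2 than with CPSF1 sh1 (-2.08 with CPSF1 sh1 and -2.72 with CPSF1 sh2, adjusted p = 7.9e-04 for the difference).

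The other members of the AP-1 and immediate early list moved in fewer lines. Beside the counts of this and the later gene lists, 31.1% of all genes tested were higher and 31% were lower in LNCaP. The shares of all genes were 33.2 and 33.7% in LNCaP95 and 12.7 and 14.3% in 22Rv1. Of the 5 tested members JUN, JUNB, JUND, IER5 and IER5L, 3 were lower and 0 were higher in LNCaP, 2 were lower and 0 were higher in LNCaP95, and 2 were lower and 1 was higher in 22Rv1, with median log2 fold changes of -0.48, -0.32 and 0.10. JUN fell from 96.5 ± 3.96 to 69.6 ± 7.67 CPM in LNCaP (log2 fold change -0.48 ± 0.074, adjusted p = 5.9e-05) and from 74.1 ± 4.16 to 59.1 ± 5.08 CPM in 22Rv1 (log2 fold change -0.33 ± 0.069, adjusted p = 0.0034), and its log2 fold change in LNCaP95 was -0.11 with an adjusted p of 0.16. JUNB fell in LNCaP95 (log2 fold change -0.66 ± 0.10, adjusted p = 1.2e-04), and its values were -0.09 in LNCaP and 0.15 in 22Rv1 without passing the test. IER5, an early growth response gene, rose in 22Rv1 (log2 fold change 0.38 ± 0.095, adjusted p = 0.0084), but without CTRL sh replicate 3 its adjusted p was 0.061. Among the 3 CEBP factors, leucine zipper proteins that share the bZIP fold with JUN, 1 was lower and 0 were higher in each line, and CEBPB fell by 0.92 (log2) in LNCaP95 with an adjusted p of 7.3e-06.

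**Figure D4:**
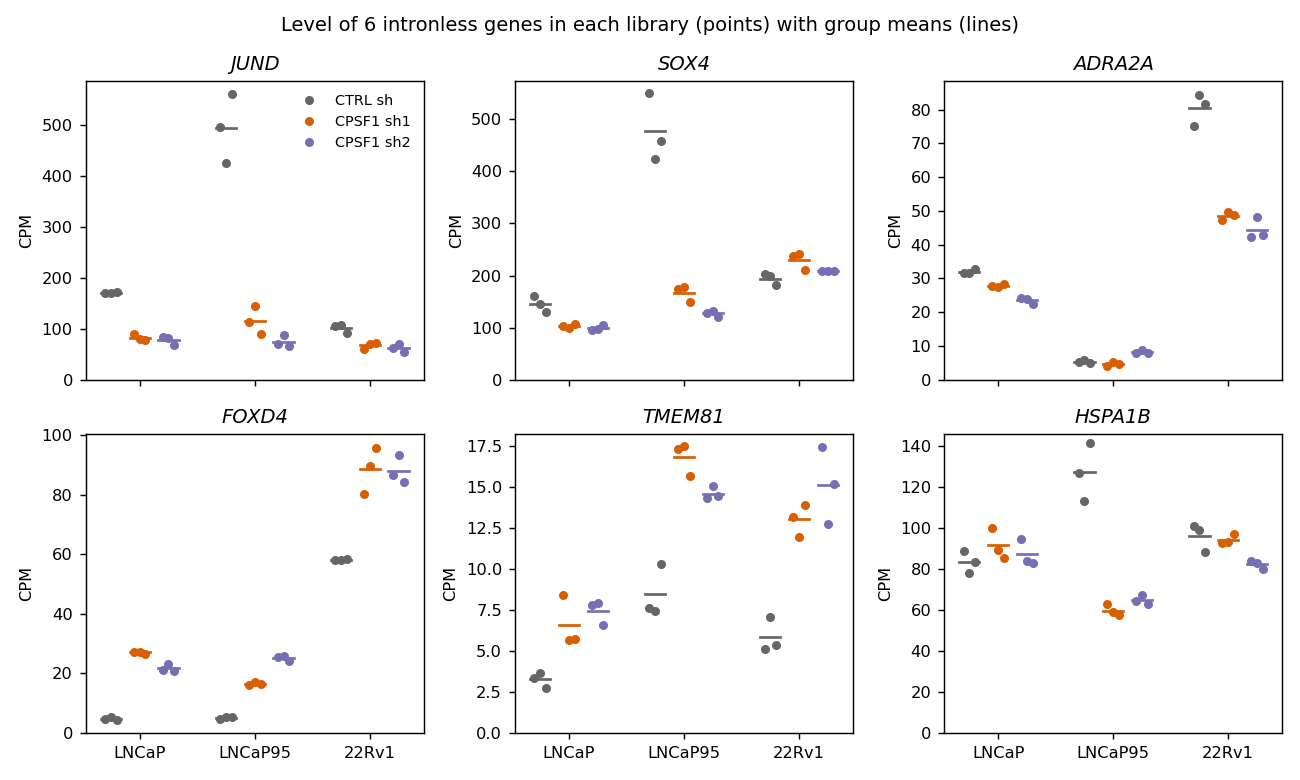
Level of 6 intronless genes in CPM (y axis, starting at 0) in each of the 27 libraries (points) by line and hairpin, with group means as lines. JUND is lower with both hairpins in all lines, SOX4 and HSPA1B fall most in LNCaP95, ADRA2A falls most in 22Rv1, and FOXD4 and TMEM81 are higher with both hairpins in all lines.

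SOX4 (chr6:21593972-21598847, plus strand), an HMG box transcription factor of progenitor cells, moved in opposite directions between lines. In LNCaP95 its level was 551, 424 and 459 CPM in the CTRL sh libraries, 174, 177 and 149 CPM with CPSF1 sh1 and 129, 133 and 121 CPM with CPSF1 sh2. In LNCaP it was 159.8, 146 and 131 CPM in the CTRL sh libraries, 104, 99 and 107 CPM with CPSF1 sh1 and 95.7, 96.9 and 106 CPM with CPSF1 sh2. In 22Rv1 it was 202, 198 and 182 CPM in the CTRL sh libraries, 238, 242 and 209.8 CPM with CPSF1 sh1 and 208, 209 and 209 CPM with CPSF1 sh2. The groups did not overlap in any line, but the CPSF1 sh libraries were the lower ones in LNCaP and LNCaP95 and the higher ones in 22Rv1. SOX4 fell from 478 ± 65.1 to 147 ± 23.8 CPM in LNCaP95 (log2 fold change -1.70 ± 0.12, adjusted p = 1.8e-07) and from 146 ± 14.6 to 101 ± 4.86 CPM in LNCaP (log2 fold change -0.52 ± 0.057, adjusted p = 1.9e-06). It rose from 194 ± 10.8 to 219.5 ± 16 CPM in 22Rv1 (log2 fold change 0.18 ± 0.060, adjusted p = 0.042), a call that was lost without any 1 of the 3 CTRL sh libraries, with an adjusted p of 0.20 without replicate 3, and also without CPSF1 sh1 replicate 1 (0.070) or 2 (0.072) and with no filter on low values (0.0502). The change in 22Rv1 exceeded that in LNCaP95 by 1.87 ± 0.13 (SE), adjusted p = 4.3e-12. All 3 SOX members were lower in LNCaP and higher in 22Rv1, SOX12 with -0.29 and 0.43 and SOX11 with -0.39 and 0.85 on the log2 scale. SOX11 lost its call without CTRL sh replicate 2 in LNCaP (adjusted p = 0.072) and without CTRL sh replicate 1 or 2 in 22Rv1 (0.069 and 0.1). No count of SOX11 was found in any LNCaP95 library, which allows up to 3 counts in each.

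ADRA2A (chr10:112836790-112840658, plus strand), the alpha-2A adrenergic receptor, fell in 22Rv1 and LNCaP. In 22Rv1 its level was 75.1, 84.5 and 81.7 CPM in the CTRL sh libraries, 47.2, 49.7 and 48.7 CPM with CPSF1 sh1 and 42.3, 48.3 and 42.8 CPM with CPSF1 sh2. The groups did not overlap there. It fell from 80.4 ± 4.79 to 46.5 ± 3.16 CPM in 22Rv1 (log2 fold change -0.79 ± 0.063, adjusted p = 4.3e-06), and also in LNCaP (log2 fold change -0.32 ± 0.076, adjusted p = 0.0019). In LNCaP95 the hairpins moved ADRA2A apart, -0.21 with CPSF1 sh1 and 0.62 with CPSF1 sh2 (adjusted p = 6.5e-05 for the difference), and the pooled value was 0.23 with an adjusted p of 0.40.

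FOXD4 (chr9:116237-118417, minus strand), a forkhead transcription factor gene, had the largest rise of the members that passed the filter in LNCaP and LNCaP95. In LNCaP its level was 4.79, 5.28 and 4.39 CPM in the CTRL sh libraries, 27.2, 27.3 and 26.6 CPM with CPSF1 sh1 and 21.2, 23.1 and 20.7 CPM with CPSF1 sh2. In LNCaP95 it was 4.7, 5.21 and 5.2 CPM in the CTRL sh libraries, 16.1, 17.1 and 16.4 CPM with CPSF1 sh1 and 25.5, 25.9 and 24.2 CPM with CPSF1 sh2. In 22Rv1 it was 58.2, 58.1 and 58.5 CPM in the CTRL sh libraries, 80.3, 89.7 and 95.9 CPM with CPSF1 sh1 and 86.7, 93.5 and 84.3 CPM with CPSF1 sh2. The control level was over 10 times higher in 22Rv1 than in the other lines, and the CPSF1 sh libraries were above the CTRL sh libraries in all lines. FOXD4 rose 5.02-fold in LNCaP (log2 fold change 2.33 ± 0.13, adjusted p = 2.8e-09), 4.11-fold in LNCaP95 (log2 fold change 2.04 ± 0.21, adjusted p = 3.6e-06) and 1.52-fold in 22Rv1 (log2 fold change 0.60 ± 0.060, adjusted p = 1.9e-05). The rise in 22Rv1 was smaller than in LNCaP, with a difference of -1.71 ± 0.20 (SE), adjusted p = 1.7e-07. FOXD4L1 (chr2:114256661-114258728, plus strand) rose from 3.89 ± 0.266 to 6.68 ± 0.936 CPM in 22Rv1 (log2 fold change 0.77 ± 0.14, adjusted p = 0.0015) and was below the filter in the other lines, where its levels were 0.419 to 1.03 CPM in CTRL sh and 3.65 to 5.49 CPM in CPSF1 sh libraries of LNCaP and 0.506 to 0.686 and 2.6 to 5.02 CPM in LNCaP95. With filterByExpr as the filter, FOXD4L1 had log2 fold changes of 2.49 ± 0.26 (SE, adjusted p = 1.7e-06) in LNCaP and 2.70 ± 0.32 (SE, adjusted p = 1.4e-05) in LNCaP95. Whether these differ from the values of FOXD4, which come from the main filter, was not tested. Reads of these near-identical copies could be split between them by the counting, so their separate values are uncertain. Of the tested FOX members, 1 of 1 was higher in LNCaP, 1 was higher and 1 was lower of 2 in LNCaP95, and 2 of 3 were higher in 22Rv1. FOXD4 began 2624 bases after the end of CBWD1 and FOXD4L1 2895 bases after the end of CBWD2 on the same strand.

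TMEM81 (chr1:205052258-205053645, minus strand), a transmembrane protein gene, rose to a like extent in all lines. In LNCaP its level was 3.38, 3.68 and 2.72 CPM in the CTRL sh libraries, 8.39, 5.67 and 5.74 CPM with CPSF1 sh1 and 7.79, 7.93 and 6.56 CPM with CPSF1 sh2. In LNCaP95 it was 7.6, 7.46 and 10.3 CPM in the CTRL sh libraries, 17.3, 17.5 and 15.7 CPM with CPSF1 sh1 and 14.3, 15.1 and 14.5 CPM with CPSF1 sh2. In 22Rv1 it was 5.11, 7.06 and 5.4 CPM in the CTRL sh libraries, 13.2, 12 and 13.9 CPM with CPSF1 sh1 and 17.4, 12.8 and 15.2 CPM with CPSF1 sh2. The groups did not overlap in any line. TMEM81 rose 2.14-fold in LNCaP (log2 fold change 1.10 ± 0.17, adjusted p = 5.1e-05), 1.88-fold in LNCaP95 (log2 fold change 0.91 ± 0.12, adjusted p = 3.0e-05) and 2.41-fold in 22Rv1 (log2 fold change 1.27 ± 0.15, adjusted p = 5.3e-05), and the change in 22Rv1 minus that in LNCaP was 0.18 ± 0.24 (SE), adjusted p = 0.57. TMEM81 began 1625 bases after the end of RBBP5.

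Of the 167 members tested in all lines, 11 (6.59%) were higher and 4 (2.40%) were lower in each of them, where 3.85% of all genes were higher and 4.9% were lower in all lines. The 11 were FOXD4, TMEM81, AC005003.1, AL590822.2, B3GALT6, C5orf55, C9orf172, LENG9, NDN, PURB and RAP2B, and the 4 were JUND, CLDN3, FAM127A and ZBED6CL. An expressed gene ended within 10 kb upstream of 4 of the 11, namely FOXD4, TMEM81, AL590822.2 and C9orf172, and of 0 of the 4, while ZBED6CL lay inside LRRC61. Such a neighbour was found for 66 of all 319 members, and the difference between these small counts was not tested. AL590822.2, 4403 bases after PRKCZ, rose 3.35-fold in LNCaP (log2 fold change 1.74 ± 0.11, adjusted p = 5.0e-09) and 2.49-fold in LNCaP95 (log2 fold change 1.32 ± 0.13, adjusted p = 3.7e-06), and its call in 22Rv1 was lost without CTRL sh replicate 2 (adjusted p = 0.093) or 3 (0.11). AC005003.1 rose 2.84-, 2.66- and 1.76-fold in LNCaP, LNCaP95 and 22Rv1. C9orf172, 3228 bases after RABL6, rose most in 22Rv1, from 2.33 ± 0.227 to 5.46 ± 1.54 CPM (log2 fold change 1.21 ± 0.23, adjusted p = 0.0019). NDN, the imprinted gene of the MAGE family protein necdin, rose most in 22Rv1 too, from 9.38 ± 1.89 to 17.6 ± 2.42 CPM (log2 fold change 0.90 ± 0.14, adjusted p = 4.1e-04), with 0.45 in LNCaP and 0.56 in LNCaP95.

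PURB, a single-stranded nucleic acid binding protein, rose to a like extent in all lines, with log2 fold changes of 0.24, 0.26 and 0.25 in LNCaP, LNCaP95 and 22Rv1 from control levels of 166 ± 8.77, 161 ± 9 and 199.5 ± 3.03 CPM (SD, n = 3). B3GALT6, a galactosyltransferase of the glycosaminoglycan linker, changed by 0.41, 0.26 and 0.25, RAP2B, a RAS family small GTPase, by 0.40, 0.31 and 0.49, LENG9 by 0.50, 0.81 and 0.36 and C5orf55 by 0.52, 0.53 and 0.53 in the same order. The 22Rv1 call of B3GALT6 was lost without CTRL sh replicate 3 (adjusted p = 0.086) and that of LENG9 without CTRL sh replicate 2 or 3 (0.058 and 0.078). Of the claudins, which seal tight junctions, CLDN3 was lower in each line and CLDN8, tested in LNCaP, was not called. CLDN3 fell from 45.9 ± 3.55 to 22.9 ± 4.82 CPM in LNCaP95 (log2 fold change -0.99 ± 0.14, adjusted p = 4.5e-05) and by 0.38 in LNCaP and 0.36 in 22Rv1 on the log2 scale. Its 22Rv1 libraries overlapped, and the 22Rv1 call was lost without any 1 of the CTRL sh libraries, with an adjusted p of up to 0.12, and without CPSF1 sh2 replicate 3 (0.052). FAM127A, which has near-identical copies on the X chromosome and so an uncertain level, fell from 93.9 ± 7.12 to 58.3 ± 4.14 CPM in LNCaP95 (log2 fold change -0.69 ± 0.066, adjusted p = 2.5e-06), by 0.22 in LNCaP and by 0.42 in 22Rv1, and the LNCaP call was lost without CTRL sh replicate 1 (adjusted p = 0.054). ZBED6CL fell from 12.3 ± 0.969 to 6.74 ± 1.14 CPM in LNCaP (log2 fold change -0.87 ± 0.13, adjusted p = 3.4e-05), by 0.39 in LNCaP95 and by 0.52 in 22Rv1, and the LNCaP95 call was lost without CTRL sh replicate 1 (adjusted p = 0.054).

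The HSP70 genes HSPA1A and HSPA1B, which encode the same stress-inducible chaperone, fell in LNCaP95. HSPA1B (chr6:31795512-31798031, plus strand) was at 127, 113 and 142 CPM in the CTRL sh libraries, 62.7, 58.9 and 57.5 CPM with CPSF1 sh1 and 64.2, 67.4 and 63.1 CPM with CPSF1 sh2 in LNCaP95. It fell 2.04-fold in LNCaP95 (log2 fold change -1.03 ± 0.068, adjusted p = 1.5e-07), and its values were 0.09 in LNCaP and -0.12 in 22Rv1, with adjusted p-values of 0.19 in both. HSPA1A (chr6:31783291-31785723, plus strand) was at 11.4, 9.08 and 25.3 CPM in the CTRL sh libraries, 4.58, 4.37 and 4.79 CPM with CPSF1 sh1 and 7.16, 4.94 and 4.64 CPM with CPSF1 sh2 in LNCaP95. CTRL sh replicate 3 stood above the other two, and all CPSF1 sh libraries were below all CTRL sh libraries (log2 fold change -1.58 ± 0.27, adjusted p = 2.4e-04), and without CTRL sh replicate 3 the log2 fold change was -1.03. In 22Rv1 HSPA1A fell from 30.4 ± 1.8 to 24.1 ± 2.64 CPM (log2 fold change -0.34 ± 0.088, adjusted p = 0.012), a call lost without CTRL sh replicate 1 (adjusted p = 0.081). The coding sequences of both genes are near-identical, so their separate counts are uncertain. HSPA6, a further inducible HSP70 gene, did not pass the filter in any line, and in LNCaP95 its CPSF1 sh libraries were all under 2 CPM. With edgeR's filterByExpr as the filter, HSPA6 fell from 13.7, 14.6 and 19.4 CPM in CTRL sh of LNCaP95 to 1.77, 1.44 and 1.62 CPM with CPSF1 sh1 and 0.929, 0.823 and 1.45 CPM with CPSF1 sh2 (log2 fold change -3.57 ± 0.19, adjusted p = 3.0e-08). It was named after its values were seen.

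Genes for chromatin proteins differed among themselves. Of all genes tested 31.1, 33.2 and 12.7% were higher and 31, 33.7 and 14.3% were lower in LNCaP, LNCaP95 and 22Rv1. In the TSPY-like and NAP1-like family of histone chaperone relatives, 4 of 5 tested members were higher and 1 was lower in LNCaP, 2 of 3 were higher and 1 was lower in LNCaP95, and 0 of 4 were called in 22Rv1, with median log2 fold changes of 0.30, 0.50 and 0.063. TSPYL4 rose from 114 ± 2.1 to 160.2 ± 6.39 CPM in LNCaP (log2 fold change 0.49 ± 0.041, adjusted p = 1.2e-07) and from 58.7 ± 3.32 to 83 ± 8.97 CPM in LNCaP95 (log2 fold change 0.50 ± 0.086, adjusted p = 2.3e-04). NAP1L3 rose by 0.90 in LNCaP and 0.81 in LNCaP95 on the log2 scale. TSPYL1 rose by 0.16 in LNCaP and fell by 0.12 in LNCaP95, and both calls were lost on leaving out a library, in LNCaP CTRL sh replicate 1 or 2 (adjusted p = 0.082 and 0.060) and in LNCaP95 CTRL sh replicate 3 (0.061), while with library size alone TSPYL1 was at -0.04 in LNCaP95. Of the replication-independent histone genes, 1 of 4 was higher and 2 were lower in LNCaP, 0 of 3 were higher and 1 was lower in LNCaP95, and 0 of 3 were called in 22Rv1. H2AFJ, a variant of histone H2A, was the most changed, falling from 48.3 ± 2.65 to 22.2 ± 3.24 CPM in LNCaP (log2 fold change -1.13 ± 0.093, adjusted p = 1.1e-07), and it reached at most 0.0950 CPM in any library of the other lines. H1F0, the linker histone of resting cells, fell in LNCaP95 (log2 fold change -0.47 ± 0.090, adjusted p = 5.1e-04), and H1FX fell in LNCaP (log2 fold change -0.25 ± 0.039, adjusted p = 5.7e-05).

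The protocadherin beta genes, cell adhesion genes that lie in tandem on chromosome 5, rose in part. Among all genes tested 31.1, 33.2 and 12.7% were higher in LNCaP, LNCaP95 and 22Rv1. Of 4 tested members 3 were higher in LNCaP, of 5 tested 4 were higher in LNCaP95 and of 10 tested 1 was higher in 22Rv1, and 0 were lower in any line, with median log2 fold changes of 0.44, 0.49 and -0.056. PCDHB14 rose from 3 ± 0.462 to 6.3 ± 1.15 CPM in LNCaP95 (log2 fold change 1.04 ± 0.18, adjusted p = 2.8e-04) and from 3.44 ± 0.117 to 5.3 ± 0.7 CPM in LNCaP (log2 fold change 0.62 ± 0.14, adjusted p = 0.0016), and its 22Rv1 value was 0.21 with an adjusted p of 0.19. PCDHB3 rose from 3.05 ± 0.278 to 6 ± 0.777 CPM in 22Rv1 (log2 fold change 0.96 ± 0.15, adjusted p = 4.5e-04) and was below the filter in the other lines. PCDHB2, the tested member with the highest level in 22Rv1 among those named here, rose by 0.33 in LNCaP, and its values were 0.06 in LNCaP95 and -0.05 in 22Rv1. GENCODE lists spliced coding transcripts for PCDHB2, PCDHB3 and PCDHB14. These genes are similar in sequence, and reads shared between them could be counted for either.

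Of the intronless genes for nuclear mRNA and transcription factors, 2 of 6 were higher and 0 were lower in LNCaP, 1 of 5 was higher and 2 were lower in LNCaP95, and 1 of 5 was higher and 1 was lower in 22Rv1, with median log2 fold changes of 0.035, -0.20 and -0.031. TAF7, a subunit of TFIID, fell from 250.1 ± 9.5 to 206 ± 12.8 CPM in LNCaP95 (log2 fold change -0.28 ± 0.054, adjusted p = 6.3e-04), with -0.05 in LNCaP and 0.01 in 22Rv1. SF3B5, a subunit of the U2 snRNP, fell in LNCaP95 (log2 fold change -0.27 ± 0.048, adjusted p = 2.8e-04) and 22Rv1 (log2 fold change -0.31 ± 0.072, adjusted p = 0.0054), and its LNCaP value was 0.12 with an adjusted p of 0.061. RHOB, an endosomal small GTPase, fell in LNCaP95 (log2 fold change -0.43 ± 0.085, adjusted p = 6.1e-04) and LNCaP (log2 fold change -0.21 ± 0.048, adjusted p = 0.0016) and was called higher in 22Rv1 (log2 fold change 0.16 ± 0.052, adjusted p = 0.040). That 22Rv1 call was lost without any 1 of the CTRL sh or CPSF1 sh2 libraries (adjusted p up to 0.18), with no filter on low values (0.054) and with the replicate number as a block (0.074). The POU factors passed the filter in 22Rv1 only, and POU3F3, a neural POU factor, fell there from 5.79 ± 0.723 to 3.56 ± 0.671 CPM (log2 fold change -0.71 ± 0.16, adjusted p = 0.0048).

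Further members changed strongly in a line and were also called in the opposite direction in another. In LNCaP TUSC1 was at 11.1, 12.1 and 9.38 CPM in the CTRL sh libraries, 6.59, 5.76 and 5.65 CPM with CPSF1 sh1 and 6.2, 4.7 and 5.23 CPM with CPSF1 sh2. All CPSF1 sh libraries were below the CTRL sh libraries (log2 fold change -0.94 ± 0.12, adjusted p = 9.9e-06), while in LNCaP95 TUSC1 rose from 11.4 ± 2.1 to 15.3 ± 1.08 CPM (log2 fold change 0.44 ± 0.11, adjusted p = 0.0043). C8orf4 was at 5.79, 7.28 and 4.51 CPM in the CTRL sh libraries, 2.14, 2.12 and 2.47 CPM with CPSF1 sh1 and 2.42, 2.8 and 2.27 CPM with CPSF1 sh2 in LNCaP95, where it fell (log2 fold change -1.32 ± 0.16, adjusted p = 1.4e-05), and it rose from 3.53 ± 0.486 to 5.86 ± 0.719 CPM in 22Rv1 (log2 fold change 0.72 ± 0.15, adjusted p = 0.0028). RPRML, a relative of the cell cycle inhibitor reprimo, was at 2.17, 2.79 and 2.55 CPM in the CTRL sh libraries, 13.1, 12.2 and 10.5 CPM with CPSF1 sh1 and 8.27, 7.41 and 6.45 CPM with CPSF1 sh2 in LNCaP95. It rose 3.94-fold there (log2 fold change 1.98 ± 0.26, adjusted p = 2.8e-05), with a larger rise for CPSF1 sh1 (2.27 with CPSF1 sh1 and 1.57 with CPSF1 sh2, adjusted p = 2.0e-04 for the difference), and its lower call in 22Rv1 was lost without CTRL sh replicate 1 (adjusted p = 0.063) or 2 (0.13).

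Among the other members with large changes, PSPN, a ligand of the GDNF family whose start lay 511 bases after the end of GTF2F1, rose from 3.37 ± 0.501 to 7.9 ± 1.49 CPM in LNCaP (log2 fold change 1.23 ± 0.18, adjusted p = 3.2e-05) and from 3.05 ± 0.42 to 8.31 ± 1.77 CPM in LNCaP95 (log2 fold change 1.44 ± 0.20, adjusted p = 4.3e-05). OTUD1, a deubiquitinase, fell from 20.1 ± 1.12 to 9.08 ± 1.73 CPM in LNCaP95 (log2 fold change -1.14 ± 0.13, adjusted p = 1.0e-05), and TMEM158 rose from 3.83 ± 1.25 to 9.86 ± 0.826 CPM (log2 fold change 1.37 ± 0.17, adjusted p = 1.4e-05). AC022400.2 fell from 5.41 ± 0.968 to 2.58 ± 0.37 CPM in LNCaP (log2 fold change -1.08 ± 0.15, adjusted p = 2.7e-05). In 22Rv1 KCTD12, an auxiliary subunit of the GABA-B receptor, fell from 10.5 ± 0.266 to 6.44 ± 1.51 CPM (log2 fold change -0.69 ± 0.16, adjusted p = 0.0059). LRRC10B fell in 22Rv1 by 0.69 on the log2 scale, a call lost without CTRL sh replicate 1 (adjusted p = 0.063). FOXC1, a forkhead factor, fell in LNCaP95 (log2 fold change -0.41 ± 0.15, adjusted p = 0.026), a call lost without CTRL sh replicate 2 or 3 (adjusted p = 0.12 and 0.054), with library size alone (0.069) and with DESeq2 (0.096).

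The next comparison was whether the change of a member differed between lines. The difference between the knockdown changes of LNCaP95 and LNCaP passed the test in 78 of 167 members, where 50.9% of all genes did. It passed in 63 members between 22Rv1 and LNCaP (40.4% of all genes) and in 85 between 22Rv1 and LNCaP95 (53.7% of all genes). Between LNCaP and LNCaP95 57 members had positive and 60 negative fold changes in both lines and 50 had opposite signs. Of the members called in both of these lines, 31 were higher and 29 were lower in both, 8 were higher in LNCaP and lower in LNCaP95 and 6 the reverse. Over all lines 26 members were called in opposite directions in different lines, SOX4, TUSC1, C8orf4, RPRML, TSPYL1, RHOB, SOX11 and SOX12 among them, and 180 of the 249 tested members were called in at least 1 line. No share over all genes is given for these counts of calls joined over lines. Whether shared or opposite calls are particular to the members was therefore not tested.

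**Figure D5:**
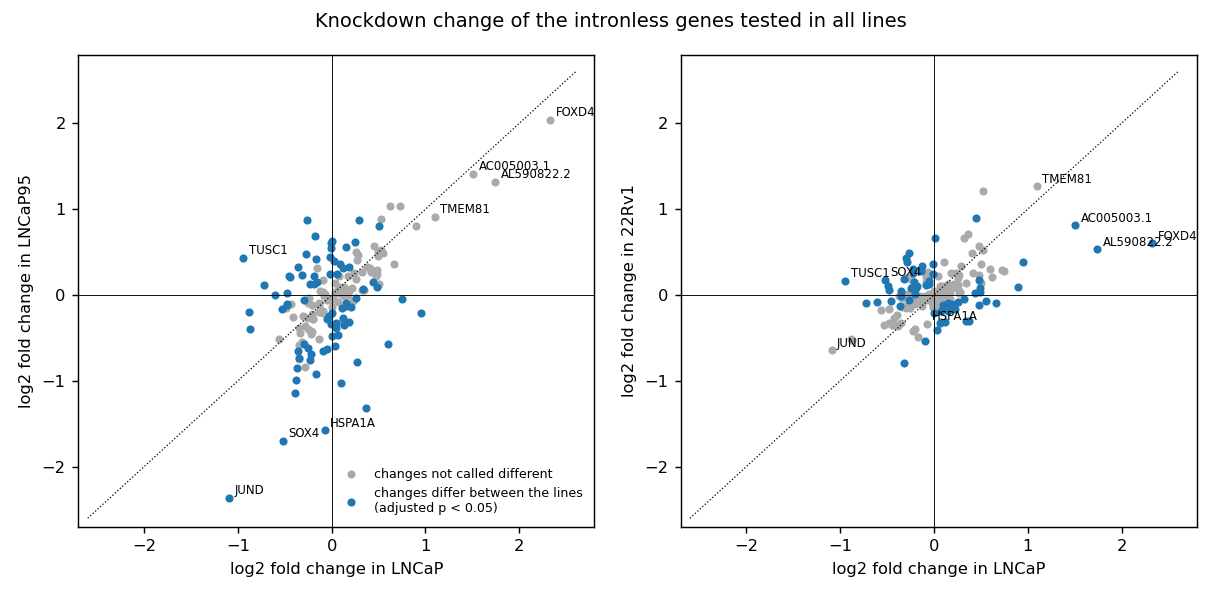
Log2 fold change of intronless genes tested in all lines (165 of 167), LNCaP on the x axis against LNCaP95 (left) and 22Rv1 (right) on the y axis, with genes whose change differed between the 2 lines in blue and equal changes on the dotted line. FOXD4 lies far to the right, at 2.33 in LNCaP.

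The 6 CPSF1 sh libraries all lay above the 3 CTRL sh libraries for 51 and all below for 53 of 196 tested members in LNCaP, where 27.9 and 27.7% of all genes were apart. The counts were 51 and 57 of 191 in LNCaP95 (29.8 and 30.3% of all genes) and 37 and 26 of 219 in 22Rv1 (13 and 15.2% of all genes). The other 70 members were not tested in any line. Their mean CTRL sh levels had medians of 0.922, 1.00 and 1.00 CPM in LNCaP, LNCaP95 and 22Rv1 and reached 4.83, 15.9 and 3.03 CPM, the highest being HSPA6. With filterByExpr 74 further members were tested in LNCaP, of which 25 were higher and 11 were lower, 86 in LNCaP95 with 34 higher and 9 lower, and 69 in 22Rv1 with 8 higher and 3 lower, where 61.9, 66.5 and 27.9% of all genes were then called in either direction. Those shares cover genes of any level, and none by direction is given for multi-exon genes of like low level. Under the main filter multi-exon genes under 5 CPM were also called higher more often than lower, as given above.

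Factors that export mRNA or mark spliced transcripts were examined as background, since the transcripts of intronless genes leave the nucleus without exon junctions. Of 18 tested genes for the TREX complex and its partners 5 were higher and 7 were lower in LNCaP, of 19 tested 4 were higher and 8 were lower in LNCaP95, and of 18 tested 3 were higher and 2 were lower in 22Rv1, with median log2 fold changes of 0.0058, -0.068 and -0.00069. Of 5 exon junction complex genes 2 were higher and 1 was lower in LNCaP, 2 were higher and 2 were lower in LNCaP95 and 0 were called in 22Rv1, with medians of -0.0094, -0.15 and 0.076. Over all genes tested the medians were -0.00036, 0.0013 and -0.0024, and 62.1, 66.9 and 26.9% were called in either direction.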

How the data were processed

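RNA was extracted, selected for poly(A) and sequenced as paired ends with a stranded kit, with 27 libraries in 9 groups as given above. Per the labels, the authors aligned reads with HISAT2 2.1.0 to GRCh37 and counted them with Subread 2.0.3. The deposited table gives raw counts per gene symbol on exons of Ensembl 87, counted by the authors on the reverse strand, without normalization, beside exon coordinates and lengths. The study's methods do not state how reads with several matches were counted, so that near-identical copies are uncertain. No column was left unused.

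The counts were analysed per line in R 4.3.3 with edgeR 4.0.16 (limma 3.58.1). Genes above 2 CPM in all 9 libraries were kept, scaled by TMM and compared by the quasi-likelihood F-test, pooling both hairpins or taking each alone, with Benjamini-Hochberg adjustment over all genes tested and a threshold of 0.05. Differences between lines came from 1 fit of all libraries. P-values measure the spread between the 3 replicates of a group and, where hairpins were pooled, also the difference between hairpins. Per-library differences used log2(CPM + 0.5), taken against the mean of the CTRL sh libraries of the line, and 10 level bins. Sequences were read from GRCh37. Python 3.11.15 with pandas 2.3.3 was used for summaries. The fits were also run on simulated counts in which far fewer genes changed than were called here. That run does not test the scaling where changes are widespread. Alternatives were DESeq2 1.42.0, other scalings and filters, a replicate block, other matching and definitions of members, single hairpins and leaving out each library.

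The members and all gene lists were chosen with earlier results of these data known. Named genes were, per line, the 5 largest rises and the 5 largest falls called among members whose groups did not overlap, those called in the same direction in all lines, and examples of the lists. Some genes that this rule names are not reported here. The lists of export and exon junction factors hold no member and serve as background.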

Additional observations from a re-analysis of the deposited data

Results flagged for a closer look

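The knockdown change of 31 named members differed between cell lines by edgeR's test of the difference itself, fitted over all libraries. For each the pair of lines with the smallest adjusted p is given as the difference of the log2 fold changes ± SE. Of all genes tested in the 3 lines, 50.9% differed between LNCaP95 and LNCaP, 40.4% between 22Rv1 and LNCaP and 53.7% between 22Rv1 and LNCaP95.

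The change in 22Rv1 minus that in LNCaP95 was positive for C8orf4 (2.03 ± 0.19, adjusted p = 1.5e-09), SOX4 (1.87 ± 0.13, adjusted p = 4.3e-12), JUND (1.71 ± 0.21, adjusted p = 9.8e-08), OTUD1 (0.89 ± 0.16, adjusted p = 3.7e-05) and JUNB (0.80 ± 0.13, adjusted p = 8.1e-06). It was also positive for IER5 (0.69 ± 0.19, adjusted p = 0.0032), CLDN3 (0.62 ± 0.18, adjusted p = 0.0047), RHOB (0.58 ± 0.099, adjusted p = 1.6e-05) and H1F0 (0.51 ± 0.11, adjusted p = 4.2e-04). It was also positive for TAF7 (0.28 ± 0.069, adjusted p = 0.0012). It was negative for ADRA2A (-1.02 ± 0.20, adjusted p = 1.2e-04), PCDHB14 (-0.82 ± 0.20, adjusted p = 0.0012), NAP1L3 (-0.72 ± 0.20, adjusted p = 0.0028), TSPYL4 (-0.47 ± 0.087, adjusted p = 5.0e-05) and LENG9 (-0.46 ± 0.13, adjusted p = 0.0031).

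The change in 22Rv1 minus that in LNCaP was positive for SOX12 (0.74 ± 0.10, adjusted p = 1.3e-06), NDN (0.47 ± 0.18, adjusted p = 0.041) and H1FX (0.34 ± 0.089, adjusted p = 0.0033). It was negative for FOXD4 (-1.71 ± 0.20, adjusted p = 1.7e-07), AL590822.2 (-1.20 ± 0.20, adjusted p = 3.2e-05), AC005003.1 (-0.68 ± 0.22, adjusted p = 0.013), SF3B5 (-0.42 ± 0.088, adjusted p = 3.4e-04) and PCDHB2 (-0.36 ± 0.11, adjusted p = 0.010).

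The change in LNCaP95 minus that in LNCaP was positive for TUSC1 (1.40 ± 0.15, adjusted p = 1.2e-08), ZBED6CL (0.50 ± 0.17, adjusted p = 0.015) and JUN (0.38 ± 0.11, adjusted p = 0.0040). It was negative for HSPA1A (-1.48 ± 0.32, adjusted p = 2.8e-04), HSPA1B (-1.11 ± 0.10, adjusted p = 3.1e-10), CEBPB (-0.73 ± 0.15, adjusted p = 1.7e-04), FAM127A (-0.45 ± 0.12, adjusted p = 0.0024) and TSPYL1 (-0.26 ± 0.066, adjusted p = 0.0014).

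In SOX4, SOX12, RHOB, TUSC1, C8orf4 and TSPYL1 the change was called in both directions in different lines, and in the others the sign was shared or 1 of the lines did not pass the test. With 3 libraries a group, no formal rule for single outlying values was applied.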

How the results depend on the processing

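Of 285 summary values under another setting 266 stayed close to the reported value (a count within 1.5 times, a median within 1 SD between replicates), as did 262 of 270 on leaving out a library. Other filters added low genes: filterByExpr gave matched medians of -0.029 in LNCaP, -0.13 in LNCaP95 and -0.022 in 22Rv1, 85 members higher in LNCaP95 and 129 differing between 22Rv1 and LNCaP95, and no filter gave 88 higher in LNCaP95 and 102 with CPSF1 sh2. Matching on length and level gave -0.027 in LNCaP and -0.0082 in LNCaP95, no matching gave -0.015 in LNCaP95, and a mean in place of the median gave 0.016 in 22Rv1. CPSF1 sh1 alone gave medians of 0.021 in LNCaP and 0.021 in 22Rv1 and 15 members lower in 22Rv1, and CPSF1 sh2 alone gave -0.040 and 50 lower in 22Rv1. DESeq2 gave 21 higher with CPSF1 sh1 in 22Rv1, and the strict definition of an intronless gene gave 26 lower with CPSF1 sh2 there. Without members inside or within 10 kb after an expressed gene, a choice made after seeing the data, 24 members were higher in 22Rv1. Apart from the filters, which admitted more genes, and the settings that removed members or libraries, the cause of these differences was not tested.

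On leaving out a library, the members higher in 22Rv1 numbered 22 to 43 and those lower 15 to 35, with CPSF1 sh1 17 to 34 and 9 to 21, and the matched median in 22Rv1 ran from -0.0296 to 0.0033. In LNCaP and LNCaP95 the numbers higher were 51 to 57 and 49 to 57, and lower 51 to 66 and 55 to 63. Of 100 called values of named members 17 lost their call without a library and 4 under another setting, and 0 changed sign. Uncalled log2 changes that changed sign were SOX12 in LNCaP95 with library size alone (0.025) and, over the settings without a library, H1F0 (-0.044 to 0.039) and HSPA1A (-0.17 to 0.044) in LNCaP and PCDHB2 (-0.082 to 0.0081), TAF7 (-0.0099 to 0.038) and TSPYL1 (-0.0042 to 0.037) in 22Rv1.

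With the replicate number as a block, the members called higher numbered 58, 52 and 33 in LNCaP, LNCaP95 and 22Rv1 and those called lower 60, 57 and 22, and RHOB in 22Rv1 was the only named call lost (adjusted p = 0.074). Whether the numbers pair the samples is not settled by these values. The deviations of same-numbered libraries of different hairpins correlated above 0.1 in 7 of 27 pairs. In LNCaP95 such pairs ran from -0.24 to 0.28. In 12 of 27 comparisons between hairpins a library correlated best with the one of its own number.

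Counts per library limit members near 2 CPM most, and 70 members did not pass the filter in any line.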

Other observations

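Members that lie inside another expressed gene on the same strand were few. In LNCaP 2 of 11 were higher and 4 were lower, in LNCaP95 2 of 11 were higher and 6 were lower, and in 22Rv1 1 of 12 was higher and 1 was lower, with median log2 fold changes of -0.097, -0.20 and -0.059. Of the 65, 66 and 84 multi-exon genes in such a position, 29.2, 28.8 and 16.7% were higher and 32.3, 24.2 and 11.9% were lower.

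The members whose table entry holds shorter separate intervals inside a longer one are those in which a spliced form may exist. In LNCaP 15 of 42 of these were higher and 12 were lower, in LNCaP95 8 of 40 were higher and 16 were lower, and in 22Rv1 7 of 49 were higher and 6 were lower. Of the members with a single interval, 42 of 150 were higher and 49 were lower in LNCaP, 45 of 147 and 44 in LNCaP95, and 28 of 165 and 17 in 22Rv1.

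By exon length, the longest members of LNCaP, above 2931 bases, had a median log2 fold change of -0.054, with 19 of 65 higher and 24 lower, and the shortest, up to 2068 bases, had 0.078, with 21 of 66 higher and 18 lower. Multi-exon genes of the same lengths had -0.0092, with 30.3% higher and 32.2% lower, and 0.016, with 33.3% higher and 27.5% lower. In LNCaP95 the medians of the longest and shortest members were -0.055 and -0.016, while multi-exon genes of the same lengths had 0.021 and -0.055. In 22Rv1 they were -0.014 and 0.0051 for members, and 0.0060 and -0.033 for multi-exon genes.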
